A study of Mus musculus with 6 samples.

Results

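Cytosolic ribosomal protein genes were followed in peripheral blood (PB) neutrophils from mice with and without experimental periodontitis. The members were the rows of the expression table whose gene name starts with Rpl or Rps and whose transcript type is protein-coding, leaving out names that mark pseudogene copies (containing -ps) and the ribosomal S6 kinases (names starting with Rps6k). This rule gave 86 genes of the 29097 in the table. By their names and known function, 77 of them encode proteins built into the cytosolic ribosome, 46 in the large subunit and 31 in the small subunit. Another 6 are paralogues of such genes (*Rpl3l*, *Rpl22l1*, *Rpl36al*, *Rpl39l*, *Rps27l* and *Rps27rt*), and 3 share the name pattern without being ribosomal proteins (*Rpl7l1*, *Rps19bp1* and *Rps23rg1*). The annotation within the table gave the term for a structural constituent of the ribosome to 83 of the 86. It was missing for *Rps19bp1*, *Rps23rg1* and the large subunit gene *Rpl7a*, but was given to *Rpl7l1*, so it did not match this grouping in full. The members lay on 19 chromosomes.

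Neutrophils were sorted by flow cytometry as CD45+CD11b+Ly6G+ cells from the blood of 8-week-old male C57BL/6 mice. In the ligature-induced periodontitis group (LIP, labelled Lig) silk ligatures had been in place on the upper and lower second molars of both sides for 14 d. Control mice (Ctrl) carried no ligature over the same 14 d. Each group had 3 Smart-seq2 libraries, and each library was made from the pooled neutrophils of 5 mice, so that the spread between libraries is one between pools. Smart-seq2 copies full-length mRNA and amplifies it by PCR without molecular identifiers, and counting error as given here therefore covers reads, not molecules.

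A ribosome is built from ribosomal RNA and one copy of nearly every ribosomal protein, and cells adjust the output of the whole protein set together. Most ribosomal protein mRNAs begin with a C followed by a run of C and T (U in the RNA), the 5′ terminal oligopyrimidine (TOP) motif, through which the kinase complex mTORC1 and the RNA-binding protein LARP1 control their translation. Neutrophils make much of their protein as precursors in the bone marrow, and ribosome content falls as they mature. Lymphocytes and reticulocytes, which share the blood with neutrophils, carry ribosomal protein mRNAs of their own.

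The first bases of the transcripts are shown here because the TOP motif is the sequence feature that ties these genes together. RefSeq promoter windows (GRCm38.p6) were found for 66 of the 86 members. Each stretch below is 30 bases on the gene's strand, from 12 bases before the annotated start to 18 bases from it on. Capitals mark runs of at least 5 letters that open with C and hold only C and T. The first 3 genes are among those with the largest falls in LIP, the next 5 are structural genes at the other end of the range of fold changes, and the last 2 are an abundant gene and its retrogene paralogue.
Rpl12 (chr2:32961700-32961729, plus strand): ggagcaggatccgtCTTTTCggCTTTCggc
Rps12 (chr10:23787192-23787221, minus strand): cgtcatgcggccaccgccggCCTTTTCCCC
Rps15a (chr7:118116130-118116159, minus strand): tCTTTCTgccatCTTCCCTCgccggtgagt
Rps9 (chr7:3704029-3704058, plus strand): gccttgtCTCTCTTTgtctcgggcctgagt
Rpl37 (chr15:5116601-5116630, plus strand): ttcctgggcggaagcttatccacaggaagt
Rpl10 (chrX:74270804-74270833, plus strand): gttacagtggaagataggccgcctatataa
Rpl41 (chr10:128549151-128549180, minus strand): acgggccggctcggaagtgacgacaccgag
Rpl7a (chr2:26910795-26910824, plus strand): CCCTCTTCTTTCTTTCTCCagcagccgagc
Rps27 (chr3:90213631-90213660, minus strand): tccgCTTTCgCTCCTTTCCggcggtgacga
Rps27rt (chr9:114982722-114982751, minus strand): acttatCCCTTgCTTTCCggcggtgacgac

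Such a run stood in the stretches of *Rpl12*, *Rps12* and *Rps15a*, and also in those of *Rps9* and *Rpl7a*, so its presence did not separate the genes with large falls from the others. The stretches of *Rpl37*, *Rpl10* and *Rpl41* held no such run. Neither did those of *Rpl5* and *Rps3a1*, not printed here, whose log2 fold changes were -1.52 and -1.32. Several marked runs, as in *Rps9* and *Rps12*, do not begin at the annotated start, so a run is not by itself a TOP motif. The stretches of *Rps27* and *Rps27rt*, from different chromosomes, shared an unbroken run of 17 bases. Over the 57 structural genes with a window, CTTTC was found on the gene's strand within 25 bases of the annotated start in 18, or 31.6%, against 7.13% of the 7265 tested genes with a window and 7.87% of all 27025 genes with one. On the opposite strand of the same bases it was found in 8.77% of structural genes and 5.73% of genes tested. CTTCCG, the core of sites for ETS-family factors, stood on either strand of the window from 250 bases before to 50 after the start in 70.2% of structural genes, 38.2% of genes tested and 18.8% of all genes. TATAAA stood on the gene's strand of that window in 8.77%, 5.84% and 9.77%, respectively. These matches describe the letters of the windows, and no binding was measured.

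The read counts summed to between 52186555 and 57262379 per library. The labelled cell type was checked against marker genes. All 21 mature neutrophil markers were present in every group and higher in LIP, with *Ly6g*, which encodes the sorted antigen, at 18.2 to 19.5 FPKM (fragments normalized to gene length and sequencing depth) in Ctrl and 37.8 to 48.3 FPKM in LIP. Lymphocyte and erythroid mRNAs were also present in this sort: all 17 B cell and all 18 T cell markers were lower in LIP, and haemoglobin genes took 14.8% of all counts in Ctrl and 1.58% in LIP. In bulk libraries such as these, fewer cells of a type and less RNA per cell cannot be told apart. The part of these other cells in the results on ribosomal protein genes was not tested.

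Ribosomal protein mRNAs took a smaller share of the library in LIP. The members held 1.43%, 1.74% and 1.63% of all counts in the Ctrl libraries and 0.548%, 0.587% and 0.556% in the LIP libraries, and the groups did not overlap. The share was 1.60% ± 0.157 (SD, n = 3) in Ctrl and 0.564% ± 0.0210 (SD, n = 3) in LIP, a ratio of 2.84. With haemoglobin genes left out of the totals, the shares were 1.88% ± 0.189 and 0.573% ± 0.0212 (SD, n = 3 each), and the ratio was 3.28. Large subunit genes fell from 0.899% to 0.302% of counts and small subunit genes from 0.670% to 0.244%, as group means. The ratio of large to small subunit counts lay between 1.33 and 1.36 in Ctrl and between 1.20 and 1.27 in LIP, again without overlap between the groups. Single abundant genes weigh most in this ratio of sums. The small subunit sum includes *Rps9*, at 20776, 25920 and 22477 counts in Ctrl and 21924, 25809 and 22461 in LIP. By the median gene the small subunit fell slightly more, at -1.28 (log2) against -1.20. The ratio therefore does not describe the typical gene of either subunit.

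**Figure D1:**
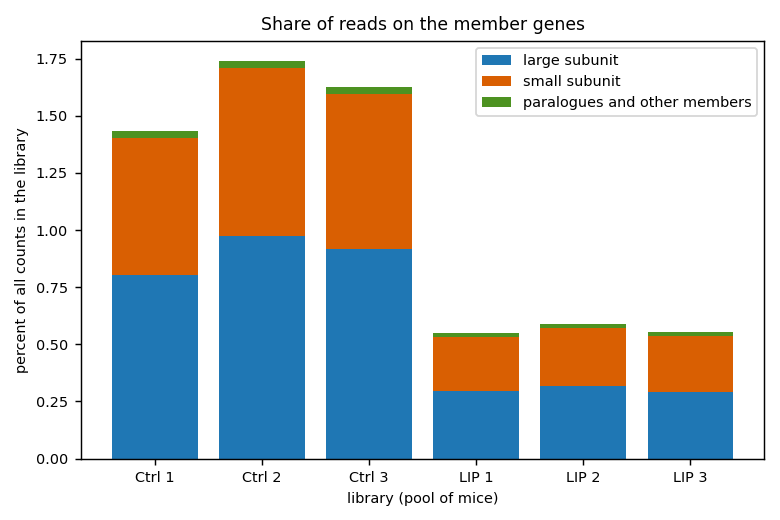
Percent of all counts in each library (vertical axis) that fell on large subunit genes, small subunit genes and the other members, as stacked bars for the 3 Ctrl and 3 LIP libraries. The Ctrl bars reach 1.43% to 1.74% and the LIP bars 0.548% to 0.587%.

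The fall was carried by nearly every gene of the set. Of the 84 members whose mean FPKM reached 1, 77 were lower in LIP and 2 were higher at an adjusted p under 0.05 (edgeR quasi-likelihood test, TMM-normalized counts, adjusted over 10440 genes), and 5 did not pass the test. Over all 10440 genes tested, 27.2% were lower and 26.5% were higher by the same rule. The median log2 fold change was -1.21 over the members and -0.09 over all genes tested. In 77 members every LIP library lay below every Ctrl library, which held for 33.1% of all genes tested. Mean levels were at least 2-fold lower in LIP for 63 members and at least 3-fold lower for 14. *Rpl39l* and *Rps23rg1* were below the filter, with at most 32 reads and 11 reads in any library, and were not tested.

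The size of the fall depends on how the libraries are scaled. Scaled to library totals, the members' median was -1.53 and that of all genes was -0.42. Scaled on the mature neutrophil markers, which rise in LIP, the values were -3.04 and -1.93. A change of scaling moves all genes by nearly the same amount, so the distance between the 2 medians, -1.12 with TMM, is by construction almost the same in each. The sign of 3 members differed between scalings, namely *Rps9*, *Rpl3l* and *Rpl7l1*. Over all genes tested 52 were higher under the neutrophil scaling, none of them in the lists of translation, ribosome assembly, mitochondrial ribosome, mTORC1 and MYC control or ribosome quality control genes described further on, so the rises given for single genes of those lists hold for the TMM scaling.

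**Figure D2:**
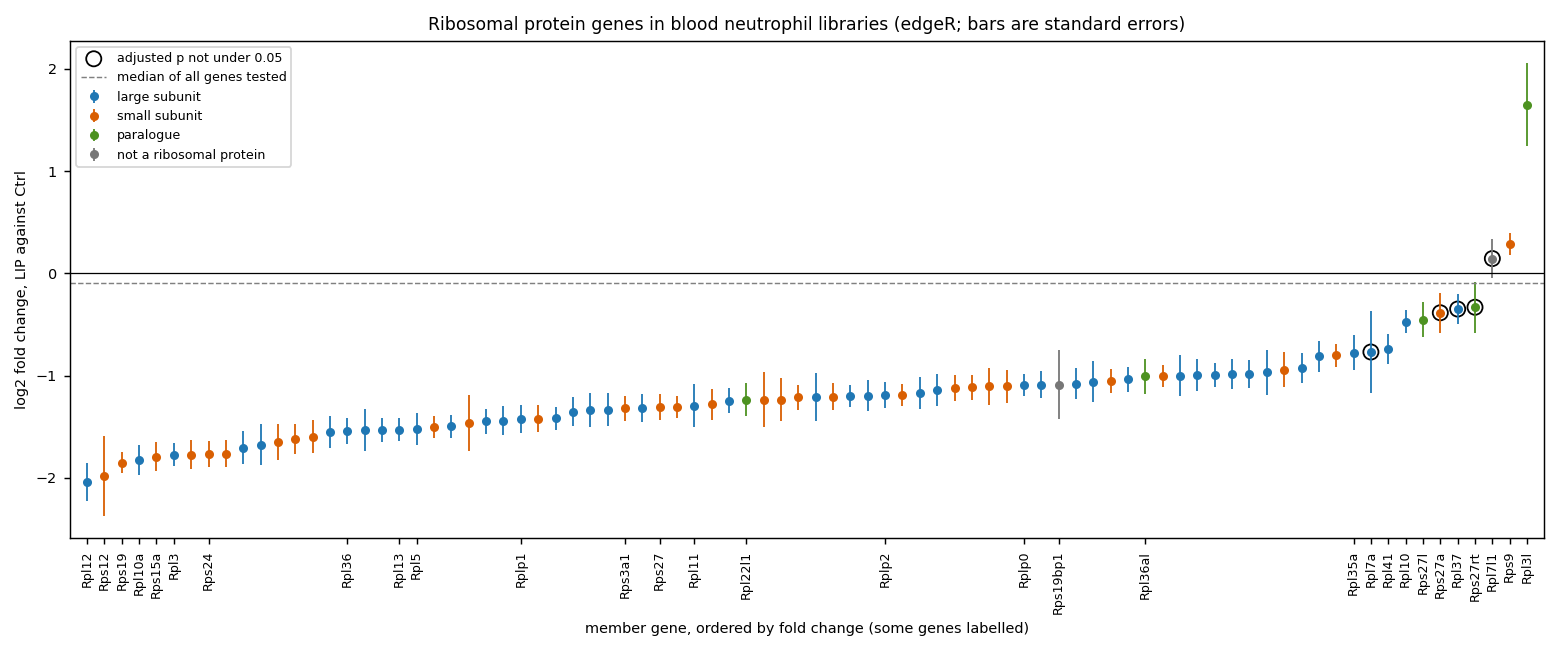
Log2 fold change of LIP against Ctrl (vertical axis) for the 84 members tested, ordered from the lowest to the highest, with standard errors as bars and the class of each gene in colour. All but *Rps9*, *Rpl7l1* and *Rpl3l* lie below 0, and the 5 genes with open circles did not pass the test.

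The large subunit carries the peptidyl transferase centre and the exit tunnel. Of its 46 genes, 44 were lower in LIP and none was higher, beside 27.2% and 26.5% of all genes tested. The median over the subunit was -1.20 (log2). *Rpl36* and *Rpl13* were among its most abundant genes by mean FPKM. *Rpl36*, at 306 FPKM the highest of all members, stood at 153, 194 and 188 CPM (counts scaled to the normalized library size) in the Ctrl libraries and at 59.2, 63.9 and 60.9 CPM in LIP. The groups were far apart, with a log2 fold change of -1.54 (SE 0.126, adjusted p = 3.84e-06). *Rpl13* fell from 992 ± 146 to 344 ± 16.3 CPM (mean ± SD, n = 3 each), with a log2 fold change of -1.53. The P stalk, the flexible arm that recruits translation factors, is made of *Rplp0*, *Rplp1* and *Rplp2*, and all 3 were lower, at -1.09, -1.42 and -1.19.

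The largest fall of any member was that of *Rpl12*, whose protein sits at the base of that stalk. *Rpl12* was measured at 59.7, 64.5 and 63.9 CPM in Ctrl and at 18.6, 15.0 and 12 CPM in LIP. Each LIP library was thus below every Ctrl library, and the log2 fold change was -2.04 (SE 0.187, adjusted p = 8.70e-06), a 4.12-fold lower mean. *Rpl10a*, a protein of the L1 stalk, fell from 133 ± 11 to 37.4 ± 5.58 CPM (SD, n = 3 each; log2 fold change -1.83, adjusted p = 2.95e-06). *Rpl3*, which reaches towards the peptidyl transferase centre, fell from 198 ± 13 to 57.8 ± 2.25 CPM (SD, n = 3 each; log2 fold change -1.77, adjusted p = 7.57e-07).

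At the other end of the large subunit set, *Rpl37* did not pass the test. It was at 87.1, 126 and 112 CPM in Ctrl and at 88.0, 84.2 and 82.4 CPM in LIP, so that Ctrl 1 lay within the LIP range (log2 fold change -0.35, adjusted p = 0.0620). Leaving out 1 library moved it between -0.48 without Ctrl 1, where it passed (adjusted p = 0.0121), and -0.21 without Ctrl 2 (adjusted p = 0.213). It was also lower with library totals, at -0.67 (adjusted p = 0.00247), and in limma on FPKM, at -0.63 (adjusted p = 0.00202). *Rpl10*, one of the last proteins to join the large subunit, was at 202, 249 and 213 CPM in Ctrl and at 157, 161 and 159 CPM in LIP (log2 fold change -0.47, adjusted p = 0.00471). *Rpl41*, which encodes the shortest ribosomal protein, fell from 178 ± 30.2 to 107 ± 13.7 CPM (SD, n = 3 each; log2 fold change -0.74, adjusted p = 0.00193). *Rpl7a* varied widely among Ctrl libraries, with 22.6, 8.78 and 31.5 CPM against 8.76, 14.3 and 13.9 CPM in LIP, and did not pass (log2 fold change -0.77, adjusted p = 0.131). Without the Ctrl 2 library it passed, at -1.12 (adjusted p = 0.0114), whereas without Ctrl 3 it was at -0.35 (adjusted p = 0.517). It passed with library totals, at -1.09 (adjusted p = 0.0442), and with the counts of its named copies added, at -0.84 (adjusted p = 0.00178).

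The small subunit decodes the mRNA. Of its 31 genes, 29 were lower in LIP, 1 was higher and 1 did not pass. Over all genes tested 27.2% were lower and 26.5% higher. The median log2 fold change of the small subunit was -1.28. *Rps27* and *Rps3a1* were among its most abundant genes. *Rps27* was at 365, 491 and 455 CPM in Ctrl and at 170, 186 and 174 CPM in LIP, without overlap (log2 fold change -1.31, SE 0.123, adjusted p = 1.05e-05). *Rps3a1* fell from 284 ± 22.5 to 113 ± 14.2 CPM (SD, n = 3 each), with a log2 fold change of -1.32.

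*Rps19*, the gene most often mutated in Diamond-Blackfan anaemia, an inherited failure of red cell production, was measured at 485, 600 and 536 CPM in Ctrl and at 147, 155 and 147 CPM in LIP. The LIP libraries were close to one another and far below Ctrl, with a log2 fold change of -1.85 (SE 0.107, adjusted p = 4.64e-07). *Rps15a* fell from 89.4 ± 4.22 to 25.8 ± 3.31 CPM (SD, n = 3 each; log2 fold change -1.79, adjusted p = 3.20e-06). *Rps12* was the lowest structural gene at 4.09 FPKM and stood at 9.93, 18.6 and 11.8 CPM in Ctrl and at 4.42, 3.84 and 1.97 CPM in LIP. Its fall of 1.98 on the log2 scale had a wide error (SE 0.391, adjusted p = 0.00170), and named pseudogene copies of *Rps12* held 1.73 times as many counts as the gene. With those counts added, *Rps12* was at -1.31 (adjusted p = 0.000311). All 10 Diamond-Blackfan genes examined, *Rps24*, *Rpl5* and *Rpl11* among them, were lower, between -1.85 for *Rps19* and -0.78 for *Rpl35a*, with a median of -1.32. They are a subset of a family in which nearly all tested members were lower.

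*Rps9* was the exception in the small subunit. It encodes a protein placed early in small subunit assembly, and was measured at 345, 433 and 385 CPM in Ctrl and at 436, 506 and 476 CPM in LIP. All LIP libraries lay above all Ctrl libraries, by a narrow gap between Ctrl 2 and LIP 1, and the log2 fold change was 0.29 (SE 0.109, adjusted p = 0.0465). The call did not pass when Ctrl 1, Ctrl 3, LIP 2 or LIP 3 was left out (log2 fold change 0.21, 0.28, 0.23 and 0.28, with adjusted p = 0.134, 0.119, 0.152 and 0.109). With library totals the value was -0.03 and on FPKM values, with limma, it was -0.02, so that no direction can be given for *Rps9* in absolute terms. Its FPKM was 158 ± 15.4 in Ctrl against 156 ± 12.2 in LIP (SD, n = 3 each), where *Rps19* went from 119 ± 10.8 to 26.6 ± 0.937. *Rps27a*, which makes a ribosomal protein fused to ubiquitin, was at 95.8, 145 and 141 CPM in Ctrl and at 112, 108 and 72.6 CPM in LIP. Its groups overlapped and it did not pass (log2 fold change -0.39, adjusted p = 0.123), though it did without Ctrl 1, at -0.55 (adjusted p = 0.0328), whereas without Ctrl 2 and LIP 3 in turn it was at -0.26 and -0.21 (adjusted p = 0.338 and 0.374). *Rps27a* was lower with library totals, at -0.71 (adjusted p = 0.0108), in limma on FPKM, at -0.68 (adjusted p = 0.0113), and with its copies added, at -0.42 (adjusted p = 0.0243).

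**Figure D3:**
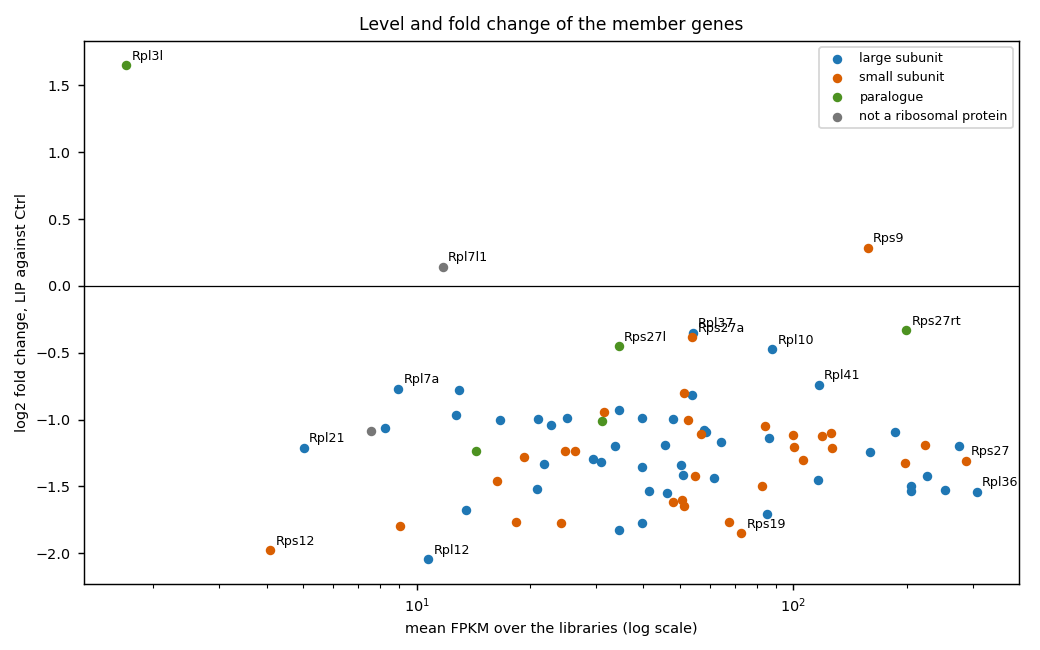
Mean FPKM over the 6 libraries (horizontal axis, log scale) and log2 fold change of LIP against Ctrl (vertical axis) for the 84 members tested, coloured by class. The falls run across the whole range of levels, from *Rps12* at 4.09 FPKM to *Rpl36* at 306 FPKM, and *Rps9* stands above the other structural genes.

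FPKM values of the structural genes were spread widely, although nearly every ribosomal protein is present in one copy per ribosome. The highest mean FPKM, that of *Rpl36*, was 74.9 times the lowest, that of *Rps12*, whose named copies held 1.73 times its counts. FPKM also depend on the length assigned to a gene. In Ctrl, *Rpl36* and *Rps24* had 178 and 180 CPM but 479 and 29.7 FPKM. The part of lengths and shared reads in this spread was not tested. Over the 77 genes the quartiles of group mean FPKM came to 39.0, 75.04 and 145 for Ctrl and to 12.9, 25.5 and 52.4 for LIP. The order of the genes by FPKM was much alike in the groups (Spearman rho 0.96 across 77 genes), and level was nearly unrelated to fold change (rho 0.04 across the same genes). Both coefficients describe genes measured in the same libraries, which are not independent replicates.

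To compare members with one another free of the scaling between libraries, the fit was repeated with each library scaled to its members' total. In this fit 17 members were lower and 12 higher relative to the set, where 4.82% and 62.9% of all 10440 genes tested were. Of the 17, *Rpl12* was the lowest, at -0.86 (SE 0.208, adjusted p = 0.00514), followed by *Rps19* at -0.66, *Rpl10a* at -0.65, *Rps15a* at -0.61 and *Rpl3* at -0.59, while *Rps12*, at -0.77, did not pass (adjusted p = 0.0912). Among structural genes *Rps9* stood highest at 1.47 (SE 0.0976), followed by *Rpl37* at 0.85, *Rps27a* at 0.81, *Rpl10* at 0.71 and *Rpl41* at 0.44. The adjusted p was 2.14e-06 for *Rps9*, the most extreme structural gene in this fit. Its difference from the members' total, which includes *Rps9* itself, was larger than the spread between libraries. The direction of *Rps9* against Ctrl was not settled.

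Paralogues replace their partner in particular tissues or arose by copying. *Rpl3l*, a form of *Rpl3* known from heart and skeletal muscle, was low but rose in LIP, from 1.58, 1.09 and 1.94 CPM in Ctrl to 5.15, 3.63 and 5.66 CPM (log2 fold change 1.65, SE 0.405, adjusted p = 0.00610, against -0.19 with the neutrophil scaling). Its FPKM was 0.0151 ± 0.00476 times that of *Rpl3* in Ctrl but 0.160 ± 0.0294 times in LIP (SD, n = 3 each). *Rpl22l1*, whose mRNA is restrained by the *Rpl22* protein, fell from 41.5 ± 2.56 to 17.6 ± 0.357 CPM (log2 fold change -1.24, adjusted p = 0.000113) and stayed near *Rpl22*, at a ratio of 1.82 ± 0.168 and 1.64 ± 0.367. *Rpl36al*, which encodes nearly the same protein as *Rpl36a*, fell from 58.1 ± 8.86 to 28.9 ± 4.07 CPM (log2 fold change -1.01, adjusted p = 0.000679), while its ratio to *Rpl36a* was 2.04 ± 0.0203 in Ctrl and 3.30 ± 0.768 in LIP.

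*Rps27l*, a paralogue known as a p53 target, was at 31.3, 37.7 and 33.8 CPM in Ctrl and at 26.9, 26.2 and 22.1 CPM in LIP. Its fall of 0.45 on the log2 scale passed narrowly (adjusted p = 0.0474) and did not pass with any 1 of the 6 libraries left out, when adjusted p lay between 0.0552 and 0.152. *Rps27l* also did not pass with median-of-ratios size factors, no filter, filterByExpr or a replicate block (adjusted p between 0.0563 and 0.121). It was lower with library totals, at -0.77 (adjusted p = 0.00306), and in limma on FPKM, at -0.74 (adjusted p = 0.000476). At a mean FPKM of at least 5 it was at -0.62 (adjusted p = 0.0072). *Rps27rt* was at 69.3, 81.0 and 113 CPM in Ctrl and at 72.3, 45.8 and 91.6 CPM in LIP, with overlapping groups (log2 fold change -0.33, adjusted p = 0.279). The value for *Rps27rt* was -0.65 with library totals (adjusted p = 0.0487) and -0.66 in limma on FPKM (adjusted p = 0.0356), against -0.10 without Ctrl 3 or LIP 2 (adjusted p = 0.759 and 0.719) and -0.57 without LIP 3 (adjusted p = 0.083). Its annotated coding sequence of 252 bases was 100% identical to that of *Rps27*, so reads within it cannot be told apart by sequence and both values are uncertain. Coding identity to the partner was 87.7% for *Rpl36al*, 73.2% for *Rpl3l*, 68.2% for *Rpl22l1* and 61.0% for *Rps27l* (GENCODE vM21, gaps counted as differences). The longest annotated coding sequence of each gene was used, which for *Rps27l* had 315 bases against 252 for *Rps27*. Its 61.0% counts 63 gap bases beside 60 mismatches, so this value does not rank *Rps27l* against the other paralogues. The 5 FPKM ratios were compared by exact permutation tests (two-sided), which cannot go below 0.1 with 3 libraries against 3. That value was reached for *Rpl3l*, *Rpl36al* and *Rps27l* (0.167 after Benjamini-Hochberg adjustment over the 5 pairs), against 0.2 for *Rps27rt* and 0.4 for *Rpl22l1* (0.25 and 0.4 adjusted).

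**Figure D4:**
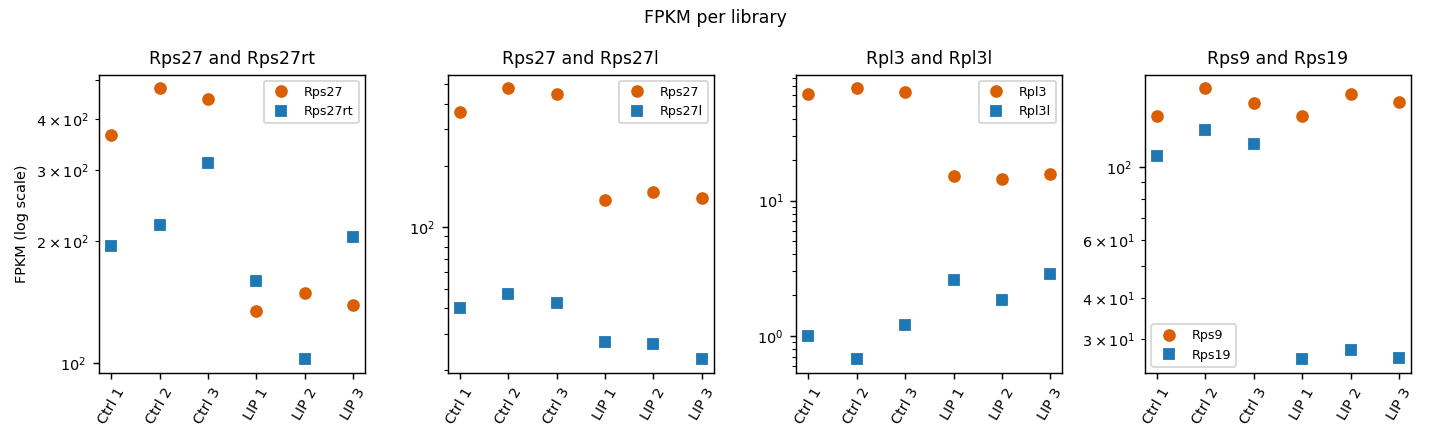
FPKM (vertical axes, log scale) of 4 gene pairs in each of the 3 Ctrl and 3 LIP libraries. *Rpl3l* is higher in every LIP library while *Rpl3* is lower, *Rps27rt* overlaps between the groups, and *Rps9* stays near 158 FPKM where *Rps19* falls from 119 to 26.6 FPKM.

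Of the members that are not ribosomal proteins, *Rpl7l1*, a factor in large subunit assembly, was at 32.6, 47.4 and 46.3 CPM in Ctrl and at 40.9, 43.6 and 55.2 CPM in LIP and did not pass (log2 fold change 0.14, adjusted p = 0.533). *Rps19bp1*, which encodes a binding partner of the *Rps19* protein, fell from 11.5 ± 1.504 CPM in Ctrl to 5.43 ± 2.20 CPM in LIP (SD, n = 3 each; log2 fold change -1.09, adjusted p = 0.0206). Its call did not pass without Ctrl 2, Ctrl 3 or LIP 2 (adjusted p = 0.0682, 0.0637 and 0.0656).

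Ribosomal protein genes have many processed pseudogenes, and reads can be shared with them. The table listed 212 rows named as copies of 53 members, and 82 of these passed the filter. Among them 41 were lower in LIP and none was higher, with 41 not passing and a median log2 fold change of -0.91 (edgeR, adjusted p under 0.05). Of these 82, 56 had no overlap between groups, all with LIP lower. Over all genes tested, 27.2% were called lower and 33.1% had every LIP library below every Ctrl library. Pseudogene copies under other names were not counted. The named copies together held 5.97% to 6.17% of the members' counts in the Ctrl libraries and 6.95% to 8.21% in the LIP libraries. Their counts exceeded those of the gene itself for 4 members, *Rpl17*, *Rpl21*, *Rps12* and *Rpl7a*, with *Rpl21-ps15* at 55.2 FPKM. Adding the copies' counts to their genes left 79 members lower and 1 higher. In addition, 19 members overlapped a further gene whose mean FPKM reached 1, and for 12 of them that gene reached at least 0.1 of the member's FPKM, as for *Rpl5* with *Dipk1a* and *Rpl28* with *Ube2s*. As the use of strand in counting was not given, reads in these overlaps are uncertain.

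Ribosomal proteins outside the name rule were examined next. *Rack1*, a scaffold on the small subunit, fell from 181 ± 20.5 to 76.5 ± 1.92 CPM (SD, n = 3 each; log2 fold change -1.24, adjusted p = 1.25e-05). *Fau*, which makes a small subunit protein fused to a ubiquitin-like domain, was at 149, 184 and 181 CPM in Ctrl and at 184, 183 and 174 CPM in LIP. Its groups overlapped, with a log2 fold change of 0.07 (SE 0.115, adjusted p = 0.610).

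Translation elongation factors and other mRNAs with a TOP motif were mostly lower too. Of the 22 genes tested, 17 were lower and 1 was higher, beside 27.2% and 26.5% of all genes tested. The median of the 22 was -0.78 on the log2 scale. *Eef1a1*, the factor that brings aminoacyl-tRNA to the ribosome, fell from 1192 ± 45.9 to 520 ± 25.5 CPM (SD, n = 3 each; log2 fold change -1.20), and *Eef1g*, a subunit of its exchange factor, was at -1.31. *Vim*, the intermediate filament vimentin, whose mRNA also carries a TOP motif, was the gene that rose (log2 fold change 0.78, adjusted p = 3.18e-05).

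The machinery that makes ribosomes was lower over much of its length. Of 78 ribosome assembly and rRNA processing genes, 58 were lower and 2 higher, with a median of -0.98. The nucleolar chaperone *Npm1* and the small nucleolar ribonucleoprotein *Nop56* both stood at -1.62, and *Zfp622*, a late large subunit assembly factor, rose by 0.72 (log2, adjusted p = 0.000388). Of 20 RNA polymerase I and rDNA transcription genes, 9 were lower, none was higher and 11 did not pass. Their median was -0.68, and over all genes tested 27.2% were lower and 26.5% higher. Among the 20, *Tcof1* was at -1.03 and *Polr1d* at -0.89. Mitochondrial ribosomal proteins, which serve a separate ribosome, showed a smaller median of -0.77, with 41 of 75 lower and 2 higher. *Mrpl28* and *Mrpl12* were at -1.22 and -1.16, whereas *Mrpl33* rose from 119 ± 3.43 to 331 ± 15.8 CPM (SD, n = 3 each; log2 fold change 1.48) and *Mrps21* rose by 0.55 (adjusted p = 0.0165).

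Among 21 genes of mTORC1, LARP1 and MYC control, which act on ribosomal protein mRNAs, 8 were lower and 6 higher, with a median of -0.04, beside 27.2% and 26.5% of all genes tested. *Myc*, which drives ribosomal protein gene transcription, was at 256, 205 and 227 CPM in Ctrl and at 45.4, 41.1 and 37.1 CPM in LIP. The groups were widely separated (log2 fold change -2.48, SE 0.134, adjusted p = 3.27e-07). *Mxd1*, a MYC antagonist of mature myeloid cells, rose from 918 ± 110 to 3421 ± 66.3 CPM (SD, n = 3 each; log2 fold change 1.898), and *Eif4ebp1*, an inhibitor of cap-dependent initiation that mTORC1 switches off, rose by 1.78. *Pdcd4*, another inhibitor of initiation, was at -1.01. Among 26 genes of ribosome quality control and hibernation, 7 were lower and 4 higher, with a median of -0.16, again beside those shares of all genes. *Trp53*, whose protein is stabilized when ribosome assembly fails, was at -1.31, and its negative regulator *Mdm2* rose by 0.92, as did *Ifrd1* by 0.70.

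**Figure D5:**
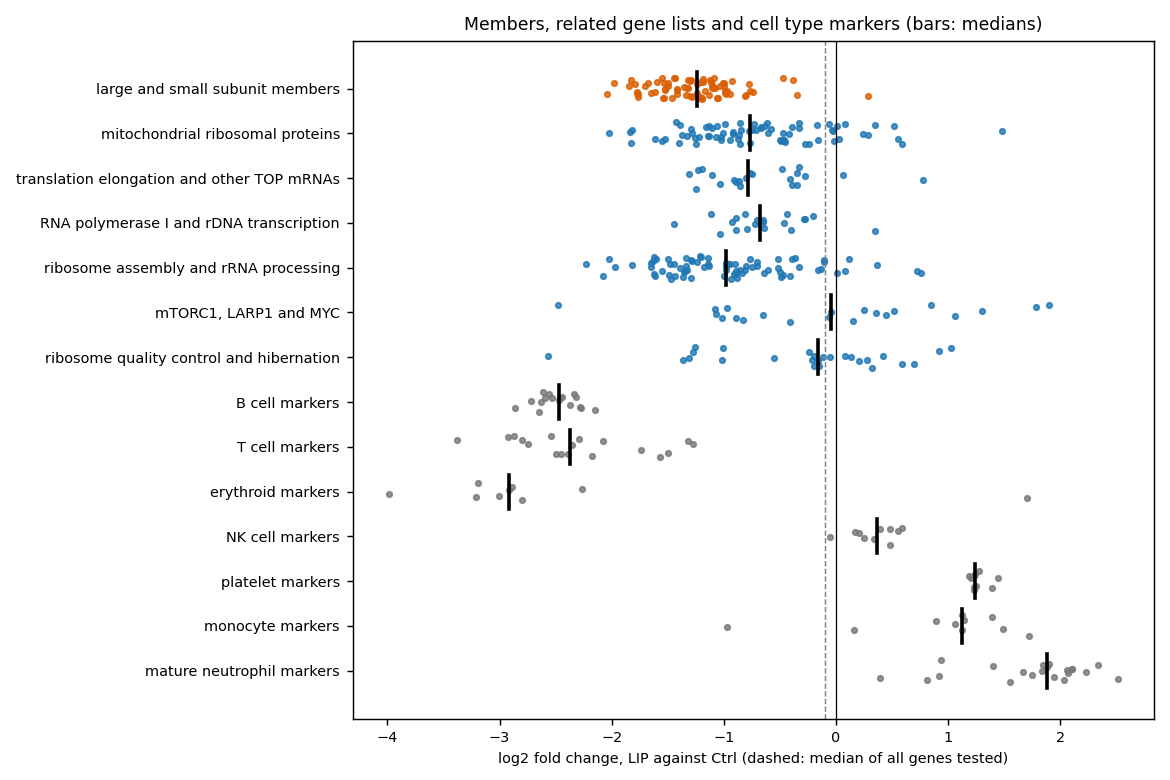
Log2 fold change of LIP against Ctrl (horizontal axis) for each tested gene of the structural members, the related lists and the cell type markers, with the median of each list as a bar and that of all genes tested as a dashed line. The structural members have a median of -1.24, between the B cell, T cell and erythroid markers at -2.92 to -2.37 and the mature neutrophil markers at 1.88.

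Markers of other blood cells moved with the same contrast, and their values stand here beside the fall of the ribosomal protein genes. Summed FPKM of the 17 B cell markers was 17365 to 19654 in Ctrl and 2785 to 2884 in LIP, with *Cd79a* at 1117 to 1250 FPKM in Ctrl and 134 to 162 FPKM in LIP. The 18 T cell markers summed to 646 to 709 and 105 to 126 FPKM, and none of the B or T cell markers was listed at 0 in all libraries of a group. Of the 9 erythroid markers tested, 8 were lower and 1 was higher, and the summed FPKM of the list was 180640 to 186843 in Ctrl and 19481 to 20189 in LIP. *Klf1* was the 1 erythroid marker listed at 0 in every LIP library. The 21 mature neutrophil markers rose from 18821 to 22634 FPKM in sum to between 61592 and 66362 FPKM. All 10 platelet markers and 8 of 10 monocyte markers were higher in LIP, by medians of 1.24 and 1.12, and 4 of 10 NK cell markers were higher, with a median of 0.37. Of the neutrophil progenitor markers 1 of 5 tested was higher and none was lower, and of the eosinophil and basophil markers 2 of 7 were higher and 1 was lower. Beside these counts, 26.5% of all genes tested were higher and 27.2% were lower. The medians were -2.47 for B cell, -2.37 for T cell and -2.92 for erythroid markers, each lower than the -1.24 of the structural ribosomal protein genes. As ribosomal protein mRNAs are common to all these cells, the libraries cannot show in which cells their levels differed.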

How the data were processed

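PB neutrophil libraries (3 Ctrl, 3 LIP, each a pool of 5 mice) were grouped by the sample labels. The authors deposited a table with whole-number read counts, not normalized, beside FPKM values, in which the authors corrected each count for gene length and sequencing depth. The submitters' processing notes name cutadapt 1.9, FastQC and GRCm38, and the aligner, the counting tool and the use of strand are not given in the sources used here. Counts were tested for the 10440 of 29097 genes whose mean FPKM reached 1, with edgeR 4.0.16 (quasi-likelihood, TMM, R 4.3.3), with Benjamini-Hochberg adjustment over those genes. The standard error of a log2 fold change was taken as its size over the square root of its F statistic. CPM are TMM-normalized, and levels were compared between genes in FPKM, with CPM set beside them only for *Rpl36* and *Rps24*. DESeq2 1.42.0, limma 3.58.1 on log2(FPKM + 1) and log2(FPKM + 0.1), other scalings, other filters, added copies, a replicate block and leaving out each library were the alternatives.

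Total counts of 52186555 to 57262379 make counting error small beside the spread between pools (common biological coefficient of variation 0.265), and no pair of libraries in a group agreed within sampling noise. The members and gene lists were chosen with earlier results of these data known. Genes named are the 3 most abundant structural genes of each subunit, the 6 highest and 6 lowest fold changes among structural genes, every paralogue and non-ribosomal member, the Diamond-Blackfan genes as a group, *Fau* and *Rack1*, and in each related list up to 2 genes with the highest and 2 with the lowest fold change among those with an adjusted p under 0.05 and a mean FPKM of at least 10. A few genes under this rule are not reported here. The P stalk genes, *Rpl17*, *Rpl21* and its copy, the overlapping genes and single marker genes fall outside this rule and were chosen after their values were seen. Sequences are RefSeq promoter windows (GRCm38.p6), and coding identities use GENCODE vM21.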

Additional observations from a re-analysis of the deposited data

How the results depend on the processing

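The count of members lower in LIP (77) lay between 75 and 83 under the other settings (73 of the 77 structural genes alone), and the 34 genes followed one by one kept direction and side of the threshold in 369 of 406 values, and in 187 of 204 with a library left out. Members higher in LIP (2) were 1 with library totals, limma with a pseudocount of 1 or 0.1, no filter, filterByExpr, copies added or structural genes only, and 0 with the scaling on mature neutrophil genes or a mean FPKM of at least 5, with 1 to 2 when a library was left out. The members' median (-1.21) was -1.53 with library totals, -3.04 with the neutrophil scaling, -1.48 and -1.52 with limma at pseudocounts of 1 and 0.1, and -1.38 at a mean FPKM of at least 5. *Rps9* was -0.0326 with library totals, -1.55 with the neutrophil scaling and -0.0176 and -0.0177 in the limma fits. *Rpl7l1* was -0.17, -1.68, -0.14 and -0.15 in those 4 settings, -0.0180 at a mean FPKM of at least 5, and between -0.0034 (without Ctrl 1) and 0.257 when a library was left out. *Rpl3l* was -0.19 with the neutrophil scaling. That scaling lowers all genes by a further 1.84 (log2), leaves 9241 lower and 52 higher over all genes, and by its construction raises the lower calls and removes the higher ones in the related lists: 20 RNA polymerase I, 19 mTORC1, 26 quality control and 75 mitochondrial ribosome genes were lower, and 0 were higher among TOP, assembly, mTORC1, quality control and mitochondrial ribosome genes. With library totals 17 RNA polymerase I and 12 quality control genes were lower, and 1 assembly, 2 quality control and 1 mitochondrial ribosome gene were higher. Of all calls 49.4% were higher in LIP with TMM, 31.6% with library totals and 32.1% and 32.3% with limma. The Ctrl share of counts was 1.88% without haemoglobin genes. At a mean FPKM of at least 5, *Rpl37* and *Rps27a* were also lower (-0.51 and -0.55, adjusted p = 0.00715 and 0.0292). With the replicate number as a block 76 members were lower and 2 higher. Same-numbered libraries come from different mice and their deviations correlated by 0.0212, 0.0562 and 0.0364, so the numbers were not taken to pair them. The causes of these shifts were not tested beyond what the scalings fix.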
